A study of Mus musculus with 4 samples.

Results

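The 37 genes described here encode the machinery by which a cell takes up glucose, splits it to pyruvate, sends the pyruvate to lactate or to the mitochondrion, and diverts sugar phosphate into the pentose phosphate pathway. They were chosen by symbol, and all 37 were found among the 50600 gene identifiers of the deposited tables, 21764 of which are protein-coding genes. The cells were regulatory T cells, CD4 T cells that hold other immune cells in check and express the transcription factor Foxp3. They came as primary cells of the mouse strain C57BL/6NJ, and the labels link a protocol for differentiating CD4 T cells, while names in the file headers carry the words activated and 72 h. No treatment, genotype or second group was given, so all 4 libraries, replicates 1 to 4, form 1 group, and the comparisons are between genes within a library and between libraries.

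Replicates 1 to 4 held 121477975, 62472060, 73690296 and 51460018 fragments on genes. The labels name separate biosamples but give all 4 the same donor identifier, with no sex or age, and call the assay total RNA-seq while linking a protocol for poly(A)+ libraries. Xist, the noncoding RNA of the inactive X chromosome, was at 173 and 199 TPM in replicates 1 and 2, against 0.592 and 0.758 TPM in replicates 3 and 4, although the donor identifier is shared. TPM is a gene's count divided by its length and expressed as a part of the library's sum of such values, which is made equal for all libraries. All 6 T cell markers and all 5 regulatory T cell markers examined averaged over 100 TPM, with Foxp3 at 448 ± 27.8 TPM (SD, n = 4). The 4 granulocyte markers and the 2 germ cell markers had 0 counts in every library, and the summed level of the 6 myeloid markers was 2.39 to 4.96 TPM, led by Adgre1, with Lyz2 at 0. The 2 CD8 T cell markers summed to 8.70 to 13.4 TPM, nearly all of it Cd8b1, with Cd8a at 0.243 TPM, and the 4 B cell markers to 2.87 to 4.31 TPM, mostly Cd79b. Replicates were not said to come from separate animals, so p-values here measure only the spread between these libraries. In bulk RNA, fewer cells that express a gene and less RNA per cell cannot be told apart.

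Glycolysis converts glucose to pyruvate in 10 enzymatic steps and yields ATP and NADH. Activated T cells are known to raise glucose uptake and to make lactate even with oxygen present, and regulatory T cells are known for a heavier reliance on mitochondrial oxidation than effector T cells. Most steps have several isozymes encoded by separate genes, which differ in tissue distribution and in regulation. The pentose phosphate pathway branches from glucose 6-phosphate and supplies NADPH and ribose phosphate. HIF-1, which binds the core ACGTG or GCGTG, and Myc, which with Max binds CACGTG, are textbook regulators of these genes.

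The upstream sequences of an abundant and a scarce isozyme of the same step are shown for lactate dehydrogenase (Ldha and Ldhb) and hexokinase (Hk2 and Hk3). Each is the 250 bases before the RefSeq transcription start on build GRCm38.p6, 5′ to 3′ on the gene's strand, with ACGTG or GCGTG on either strand in capitals. The windows lie at chr7:46845554-46845803 (plus strand) for Ldha, chr6:142507958-142508207 (minus strand) for Ldhb, chr6:82774455-82774704 (minus strand) for Hk2 and chr13:55021386-55021635 (minus strand) for Hk3.
Ldha: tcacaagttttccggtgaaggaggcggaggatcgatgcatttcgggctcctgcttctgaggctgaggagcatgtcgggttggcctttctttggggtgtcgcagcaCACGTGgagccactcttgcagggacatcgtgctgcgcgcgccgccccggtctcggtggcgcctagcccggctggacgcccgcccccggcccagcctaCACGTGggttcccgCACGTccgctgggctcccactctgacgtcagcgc
Ldhb: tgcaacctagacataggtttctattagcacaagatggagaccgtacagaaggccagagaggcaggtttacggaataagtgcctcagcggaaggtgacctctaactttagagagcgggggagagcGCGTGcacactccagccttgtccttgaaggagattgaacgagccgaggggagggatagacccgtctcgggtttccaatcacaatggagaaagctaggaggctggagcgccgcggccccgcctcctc
Hk2: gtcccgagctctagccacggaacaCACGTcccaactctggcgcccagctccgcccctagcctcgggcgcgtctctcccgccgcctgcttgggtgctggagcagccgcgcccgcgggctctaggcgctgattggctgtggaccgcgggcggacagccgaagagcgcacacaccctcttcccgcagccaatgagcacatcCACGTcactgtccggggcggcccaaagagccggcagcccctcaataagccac
Hk3: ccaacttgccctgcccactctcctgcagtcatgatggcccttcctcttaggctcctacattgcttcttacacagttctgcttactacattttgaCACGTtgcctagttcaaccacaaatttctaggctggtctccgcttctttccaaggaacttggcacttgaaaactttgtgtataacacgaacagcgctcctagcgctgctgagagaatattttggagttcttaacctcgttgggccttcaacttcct
The Ldha window held 5 matches, because CACGTG reads as ACGTG on both strands, Hk2 held 2, and Ldhb and Hk3 held 1 each. Thus the scarce isozymes of both pairs carried the letters too. RefSeq promoters matched 36 of the 37 genes; Slc2a3 was not matched. Several genes have more than 1 start, which gave 56 windows, and 43 of these (76.8%) held ACGTG or GCGTG, against 38.6% of all 32851 promoter windows. CACGTG, which contains ACGTG, was in 10.7% of the windows of these genes and in 6.02% of all windows. GGGCGG, the core of an Sp1 site, was in 48.2% and 32.7%, and TATAAA in 3.57% and 12.4%. For 1 window per matched gene, nearest the start of its principal coding transcript, median GC content was 60.0%, against 52.4% for all windows. How much of the motif difference goes with GC content was not tested. A match is a run of letters and does not show binding.

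Transcripts of these genes were abundant. Together they took 15483 ± 771 TPM (SD, n = 4), or 1.55% of all TPM, and 1.93%, 1.72%, 1.84% and 1.93% of the counts in replicates 1 to 4. Of the 37 genes, 35 reached 1 TPM in every library, against 48.9% of protein-coding genes. The mean level was 100 TPM or more for 22 of them, against 9.62% of protein-coding genes, and 1000 TPM or more for 6, against 0.437%. The 6 were Ldha, Pkm, Gapdh, Aldoa, Tpi1 and Eno1, which ranked 12, 31, 46, 53, 58 and 75 among protein-coding genes by TPM. The median of the 37 mean levels was 140 TPM, against 14.8 TPM for the 15067 protein-coding genes with a count. Hk3 and Pdk4 were the 2 genes under 1 TPM.

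**Figure D1:**
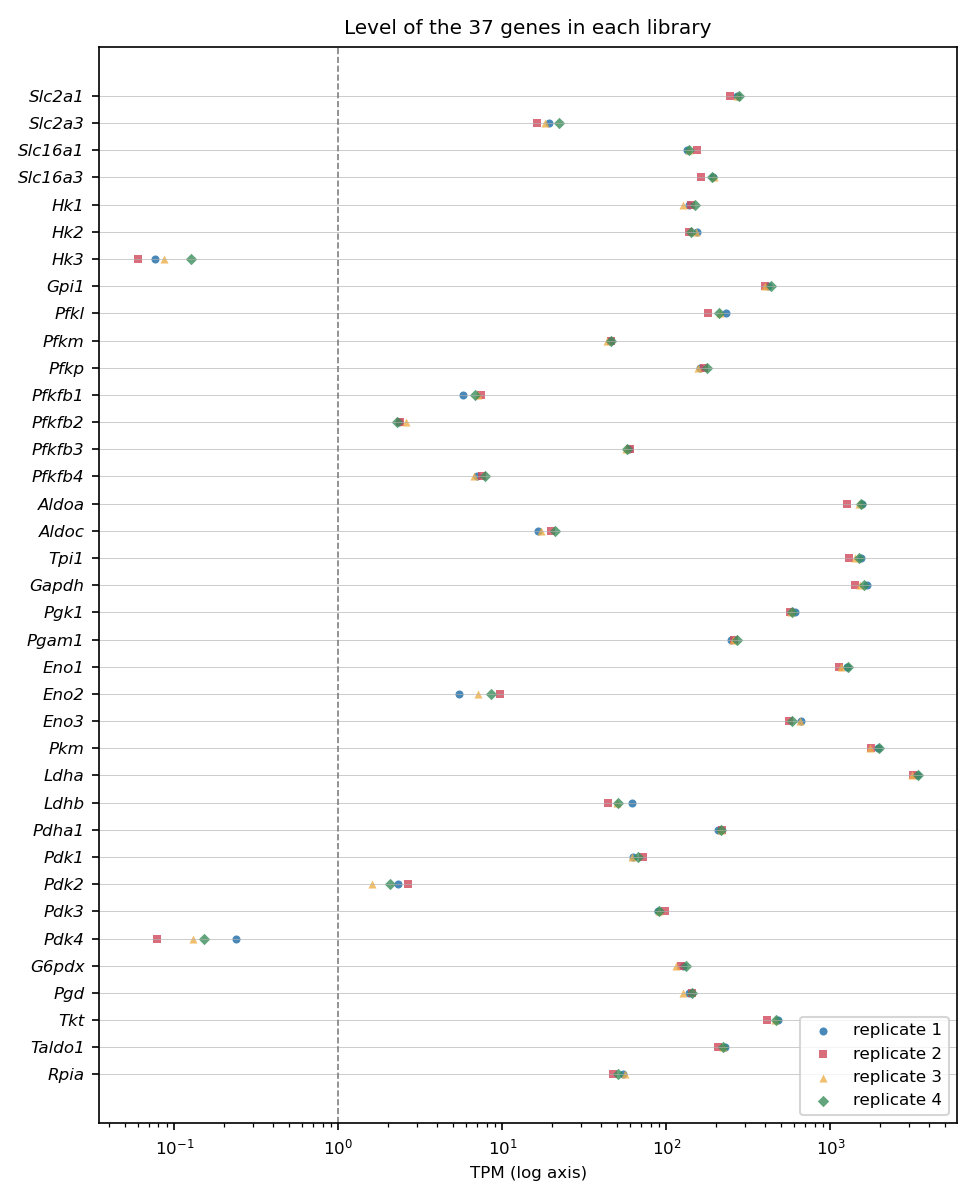
Level of each of the 37 genes in each library, in TPM on a log axis, with 1 marker per replicate and genes in pathway order; the dashed line is 1 TPM. Ldha is highest at 3159 to 3418 TPM, Hk3 and Pdk4 alone lie left of the line, and the 4 replicates of most genes lie close together.

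Among the glucose transporter genes examined, Slc2a1, which encodes GLUT1, had the most transcript. Slc2a1 (mm10 chromosome 4, 119108711 to 119137983) was at 268, 243, 270 and 277 TPM in replicates 1 to 4, and Slc2a3, which encodes GLUT3, was at 19.3, 16.3, 18.1 and 22.1 TPM. The 2 genes did not come near each other in any library. Slc2a1 exceeded Slc2a3 by 3.80 ± 0.12 on the log2(TPM + 0.1) scale (SD, n = 4), and it held 93.3% ± 0.51 of their summed TPM. By principal transcript length the difference was 3.04 and the share 89.2%, and by counts without length they were 2.76 and 87.2%. Among other glucose transporter genes, Slc2a6 was at 37.2 ± 7.57 TPM and Slc2a8 at 25.9 ± 2.71 TPM, while Slc2a4, the insulin-responsive transporter of muscle and fat, and Slc2a2, that of liver and beta cells, averaged 0.641 and 0.0947 TPM.

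Hexokinase traps glucose as glucose 6-phosphate, and here 2 isozymes shared the step. Hk2 (chromosome 6, 82725025 to 82774454), the inducible form, was at 154, 138, 152 and 141 TPM in replicates 1 to 4, and Hk1, the widely expressed form, was at 137, 141, 126 and 150 TPM. Hk2 was the higher in replicates 1 and 3 and Hk1 in replicates 2 and 4, so the order of the 2 genes was not fixed by these data. Their difference was 0.08 ± 0.17 on the log2 scale (exact two-sided sign-flip test over libraries, p = 0.50). It depends on the length by which counts are divided: Hk1 has a merged exon length of 8532 bases in the files, against 3745 bases for its principal coding transcript, and by principal transcript length Hk2 was at 108 ± 5.76 TPM and Hk1 at 215 ± 15.3 TPM, with Hk1 the higher in 4 of 4 libraries. Hk3, known mainly from myeloid cells, had 10, 4, 7 and 7 counts in replicates 1 to 4, or 0.0871 ± 0.0281 TPM. Of the 6 myeloid markers, Adgre1 averaged 2.55 TPM, Cd14 0.739 TPM and Fcgr3 0.320 TPM, all above Hk3, while Csf1r averaged 0.0382 TPM, Itgam 0.0218 TPM and Lyz2 0. The part of such cells in the Hk3 counts was not tested. Of the other sugar kinases, Adpgk, whose product uses ADP in place of ATP, was at 46.7 ± 1.18 TPM (123 TPM by principal transcript length), and Hkdc1 had 6, 0, 0 and 0 counts. Gpi1, whose product isomerizes glucose 6-phosphate to fructose 6-phosphate, stood above all of these at 411 ± 18.8 TPM.

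Phosphofructokinase commits the sugar to glycolysis, and all 3 of its subunit genes were expressed. Pfkl, the liver-type subunit, was at 231, 180, 213 and 209 TPM in replicates 1 to 4, Pfkp, the platelet type, was at 161, 170, 157 and 177 TPM, and Pfkm, the muscle type, was at 45.0, 45.9, 43.2 and 45.6 TPM. Pfkm was the lowest subunit in every library: Pfkl exceeded it by 2.20 ± 0.17 and Pfkp by 1.88 ± 0.05 on the log2 scale, or by 2.97 and 2.99 with principal transcript lengths. Pfkl exceeded Pfkp by 0.32 ± 0.20 in 4 of 4 libraries, but by principal transcript length the difference was -0.020 ± 0.198 with 2 libraries on each side. The skeletal muscle marker Ckm averaged 0.188 TPM and Myh1 was at 0, beside a Pfkm level of 44.9 ± 1.20 TPM.

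Fructose 2,6-bisphosphate, the strongest activator of phosphofructokinase, is made and broken down by the 4 bifunctional enzymes of the Pfkfb genes. Pfkfb3, the form with the highest kinase to phosphatase ratio, led with 59.1, 60.2, 56.6 and 57.5 TPM in replicates 1 to 4 and held 78.1% ± 1.10 of the family's TPM. Pfkfb4 was at 7.24 ± 0.50 TPM, Pfkfb1, the liver form, at 6.75 ± 0.73 TPM and Pfkfb2, the heart form, at 2.39 ± 0.14 TPM. Pfkfb3 exceeded Pfkfb4 by 3.00 ± 0.09 on the log2 scale in 4 of 4 libraries. Pfkfb4 and Pfkfb1 differed by 0.10 ± 0.17, with Pfkfb4 higher in 3 of 4 libraries (exact sign-flip test, p = 0.375), and by principal transcript length the sign turned to -0.61. Of the merged exon bases of Pfkfb2, 17.4% are shared with Gm29427 on the same strand. How fragments on such shared bases were counted is not stated here. Tigar, which encodes a fructose bisphosphatase acting on the same metabolite, was at 39.6 ± 3.46 TPM, above every Pfkfb gene except Pfkfb3.

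Most steps from aldolase on had more transcript than the steps before: aldolase, triose-phosphate isomerase, GAPDH, enolase and pyruvate kinase each summed to 1431 to 1857 TPM, and hexokinase, isomerase and phosphofructokinase to 285 to 419 TPM. The summed level of the 3 earlier steps was 1144, 1072, 1087 and 1159 TPM in replicates 1 to 4, and that of the 7 steps from aldolase to pyruvate kinase was 9500, 8277, 8827 and 9369 TPM. Phosphoglycerate kinase and phosphoglycerate mutase were low points in the lower part: Pgk1 was at 605, 570, 577 and 585 TPM and Pgam1 at 248, 257, 256 and 268 TPM in the 4 libraries. Pgam1 thus stood below every other step from aldolase to pyruvate kinase, in 4 of 4 libraries.

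**Figure D2:**
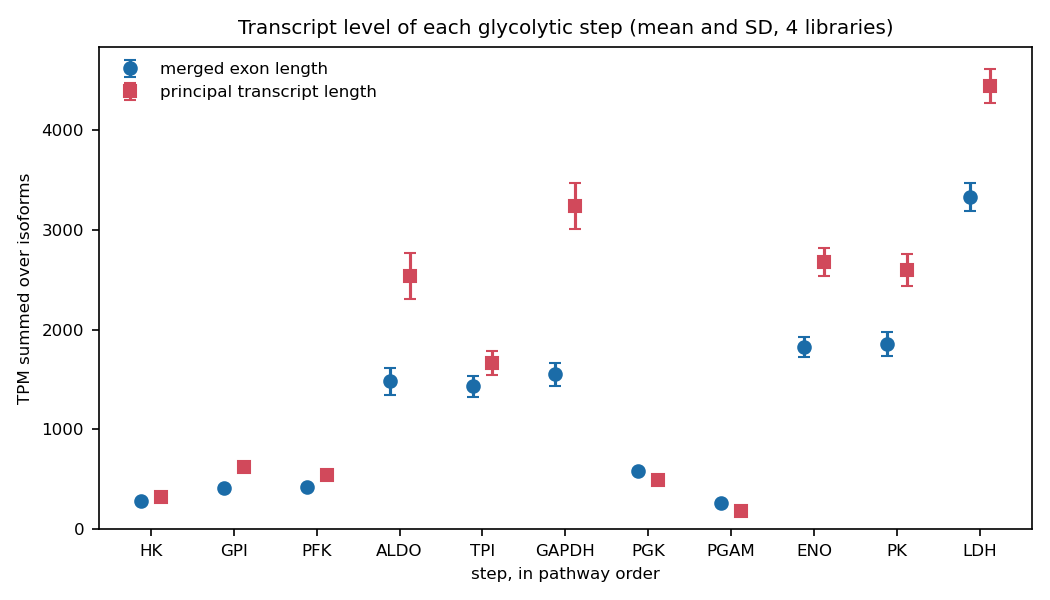
Summed TPM of the isozyme genes of each glycolytic step and of lactate dehydrogenase, mean and SD over 4 libraries, in pathway order; blue circles use the merged exon length of the files and red squares the length of the principal coding transcript. On both scales hexokinase, isomerase and phosphofructokinase lie at 285 to 626 TPM, phosphoglycerate mutase is a low point at 257 or 180 TPM, and lactate dehydrogenase is highest at 3331 or 4446 TPM.

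Aldoa (chromosome 7, 126795234 to 126809108), the aldolase of muscle and most other tissues, was at 1554, 1258.5, 1499 and 1545 TPM in replicates 1 to 4, lowest in replicate 2. Aldoc, the aldolase known from brain, was at 18.6 ± 2.06 TPM. Aldoa exceeded Aldoc by 6.29 ± 0.25 on the log2 scale, or by 7.09 with principal transcript lengths, and held 98.7% ± 0.22 of the step. Tpi1, which encodes triose-phosphate isomerase, was at 1529, 1293, 1406 and 1496 TPM, and its range overlapped that of Aldoa. Gapdh, whose product makes NADH at the next step, was at 1675, 1415, 1509 and 1612 TPM, and it too overlapped Aldoa. By principal transcript length Gapdh rather than Pkm was the second most abundant of the 37 genes, at 3244 ± 231 TPM, because its merged exon length of 4133 bases far exceeds the 1346 bases of that transcript.

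Enolase was a step where a second isozyme gene, Eno3, was abundant too. Eno1 (chromosome 4, 150236721 to 150248879), the ubiquitous alpha-enolase, was at 1263, 1126, 1164 and 1275 TPM in replicates 1 to 4. Eno3 (chromosome 11, 70657202 to 70662513), the beta-enolase known from skeletal muscle, was at 657, 558, 654 and 584.5 TPM, and Eno2, the gamma-enolase used as a marker of neurons, was at 5.42, 9.67, 7.06 and 8.47 TPM. Eno3 thus ranked 7 among the 37 genes (9 by principal transcript length), with a level near that of Pgk1, which it exceeded in 2 of 4 libraries. Eno1 exceeded Eno3 by 0.98 ± 0.12 on the log2 scale, or by 2.13 ± 0.12 with principal transcript lengths. Eno3 held 33.6% ± 1.92 of enolase TPM by merged exon lengths and 18.5% ± 1.29 by principal ones. By counts without length its share was 14.1% ± 1.04. Summed over Ckm, Acta1 and Myh1, skeletal muscle markers came to 0.341 to 0.493 TPM, and the neuron markers Rbfox3, Snap25 and Syt1 to at most 0.00824 TPM. No 50-base stretch of the Eno3 transcript occurred in an annotated pseudogene, and no gene on another chromosome shared 10% or more of these stretches. Genes that share less, or lie on the same chromosome, were not counted. No other gene's exons overlapped those of Eno3. Other enolase genes were low: Eno1b, an Eno1 retrogene, was at 2.00 ± 0.20 TPM and Eno4 at 0.324 ± 0.179 TPM.

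Pkm (chromosome 9, 59656368 to 59679375), which encodes the muscle-type pyruvate kinases, was at 1948, 1770, 1737 and 1974 TPM in replicates 1 to 4, second to Ldha in every library by merged exon length. Counts per gene do not separate its splice forms PKM1 and PKM2, and 15.3% of its merged exon bases are shared with Gm49759 on the same strand. Pklr, the pyruvate kinase of liver and red cells, had 0 counts in every library.

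Pyruvate leads to lactate or to acetyl-CoA. Ldha (chromosome 7, 46841475 to 46855627), the lactate dehydrogenase subunit that favours lactate formation, was at 3367, 3172, 3159 and 3418 TPM in replicates 1 to 4. Ldhb, the heart-type subunit, was at 61.5, 44.1, 49.7 and 50.9 TPM. Ldha exceeded Ldhb by 6.00 ± 0.17 on the log2 scale, or by 6.71 with principal transcript lengths, and held 98.5% ± 0.18 of their TPM. Pdha1, the catalytic subunit of pyruvate dehydrogenase, was at 207, 218, 216 and 216 TPM, and Ldha exceeded it by 3.93 ± 0.08 in 4 of 4 libraries, or by 4.52 with principal transcript lengths. For the rest of that complex, Pdhb was at 178 ± 7.41 TPM, Dld at 109 ± 11.2 TPM, Dlat at 57.9 ± 1.23 TPM and Pdhx at 25.5 ± 1.44 TPM, so every subunit gene lay below Pdha1. The mitochondrial pyruvate carrier genes Mpc1 and Mpc2 were at 52.0 ± 1.84 and 12.4 ± 0.60 TPM (78.5 and 60.5 TPM by principal transcript length), and Pcx, the gene of pyruvate carboxylase, was at 119 ± 4.16 TPM.

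Lactate leaves or enters through monocarboxylate transporters. Slc16a3, which encodes the exporter MCT4, was at 192, 163, 194 and 189 TPM in replicates 1 to 4, and Slc16a1, which encodes MCT1, was at 134, 153, 137 and 137 TPM. Slc16a3 was the higher in every library, but in replicate 2 it was low and Slc16a1 high, so that the difference there was 0.091, against 0.46 to 0.52 in the other 3. The mean difference was 0.40 ± 0.20, and by principal transcript length it was 1.55 ± 0.20. Bsg, whose product basigin carries these transporters to the membrane, was at 651 ± 39.5 TPM, the highest of 55 other genes of these pathways examined. Slc16a7 averaged 0.0601 TPM and Slc16a8 had 0 counts.

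The pyruvate dehydrogenase kinases, which switch the complex off, were represented by Pdk3 and Pdk1. Pdk3 was at 89.3, 98.4, 89.5 and 90.1 TPM in replicates 1 to 4, and Pdk1, a classical HIF-1 target, was at 62.5, 72.1, 61.9 and 67.0 TPM. Pdk3 exceeded Pdk1 by 0.48 ± 0.05 on the log2 scale in 4 of 4 libraries, and by 0.17 ± 0.05 with principal transcript lengths, while without division by length Pdk3 had fewer fragments than Pdk1, at 69.1 CPM (a count's part of the library total) against 151 CPM. Pdk2 was at 2.16 ± 0.44 TPM. Pdk4, which is induced by fasting and fatty acids in muscle and liver, had 30, 5, 10 and 8 counts, or 0.150 ± 0.067 TPM. The kinases summed to 160 ± 9.21 TPM, and the opposing phosphatases Pdp1 and Pdp2 to 40.5 ± 1.75 TPM.

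**Figure D3:**
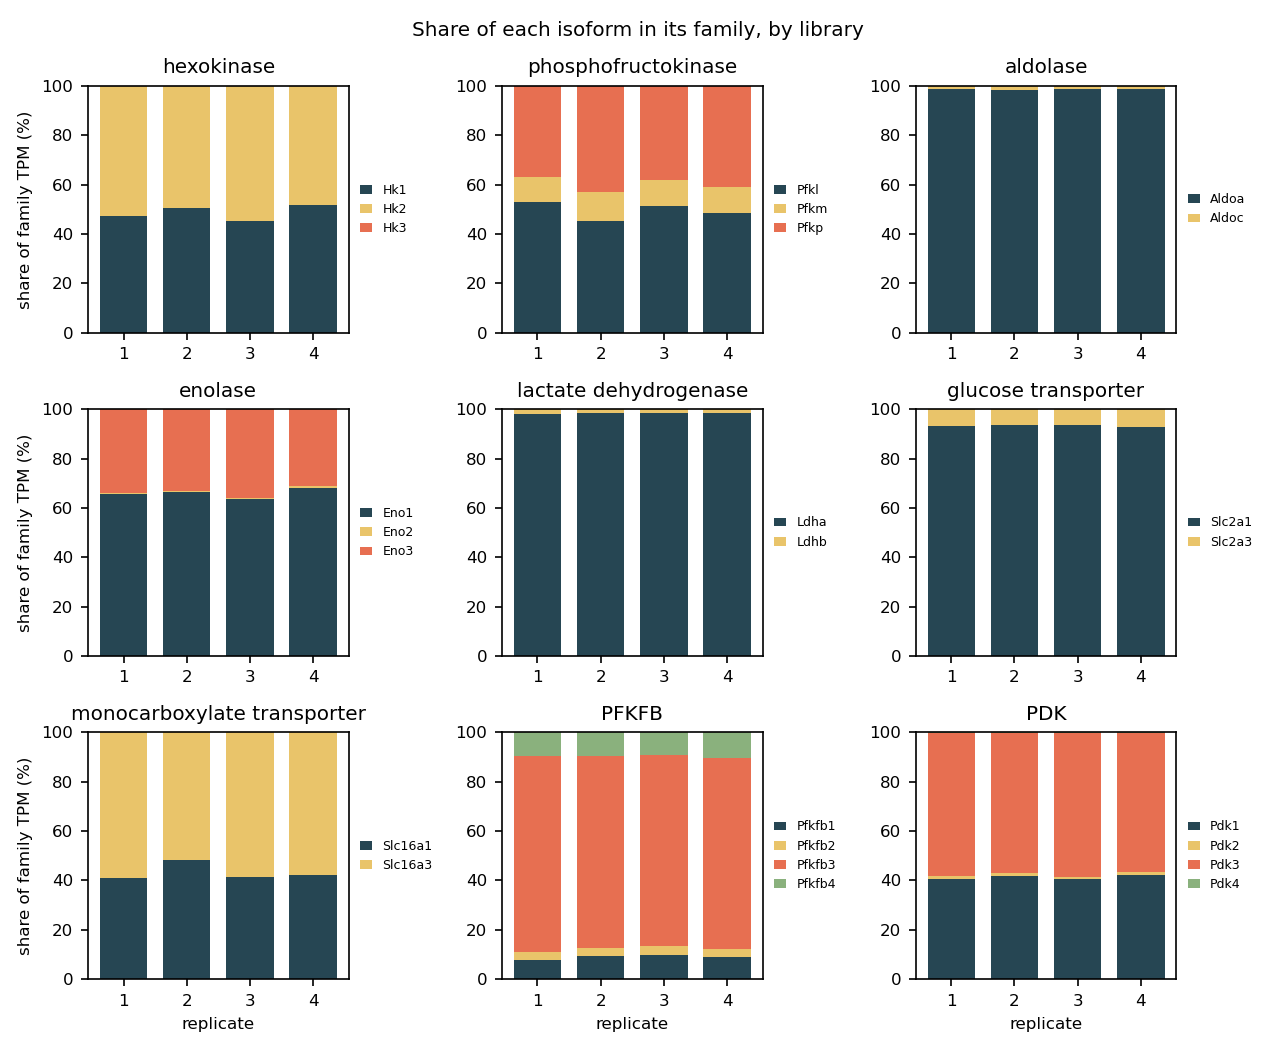
Share of each gene in the summed TPM of its isozyme family, in percent, for replicates 1 to 4 and 9 families. Ldha, Aldoa and Slc2a1 fill over 92% of their bars in every library, Hk1 and Hk2 have nearly equal parts on this length scale, and the Slc16a3 share is smallest in replicate 2 at 51.6%.

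In the pentose phosphate pathway, the transferase genes of the non-oxidative branch were the most abundant by merged exon length. Tkt, which encodes transketolase, was at 480, 410, 462 and 463 TPM in replicates 1 to 4, and Taldo1, which encodes transaldolase, was at 229, 208, 221 and 220 TPM. Rpia, the ribose 5-phosphate isomerase gene, was lower, at 51.9 ± 3.72 TPM, with the epimerase gene Rpe at 67.6 ± 5.03 TPM. In the oxidative branch, which makes the NADPH, Pgd was at 136, 144, 126 and 144 TPM and G6pdx at 125, 123, 114 and 131 TPM, with the lactonase gene Pgls at 98.7 ± 8.48 TPM. Pgd exceeded G6pdx by 0.16 ± 0.05 on the log2 scale in 4 of 4 libraries, and by 1.48 ± 0.05 with principal transcript lengths, since the merged exon length of Pgd is 6447 bases against 2218. By merged exon length, Rpia and Rpe lay below all 3 oxidative genes in mean TPM. The 4 non-oxidative genes summed to 792 ± 37.3 TPM and the 3 oxidative genes to 359 ± 16.4 TPM. By principal transcript length Taldo1 was at 264 TPM, below Pgls at 283 TPM and Pgd at 272 TPM. The non-oxidative and oxidative sums were then 1046 ± 52.6 and 653 ± 26.9 TPM. The paralogs G6pd2, Tktl1 and Tktl2 were at 0.0353, 0 and 0 TPM, while H6pd, the enzyme of the endoplasmic reticulum, was at 29.5 ± 1.00 TPM. Downstream, Prps1, whose product makes the ribose donor of nucleotide synthesis, was at 284 ± 27.8 TPM.

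The 27 pairs of genes compared within families, with Ldha against Pdha1 and Pgd against G6pdx, kept their order in 4 of 4 libraries in 25 cases. The exceptions were Hk2 with Hk1 and Pfkfb4 with Pfkfb1. With signs flipped exactly over libraries (two-sided), 2 of 16 assignments are as extreme for each of the 25, which gives an exact p = 0.125, the smallest that 4 libraries allow, and 0.135 after Benjamini-Hochberg adjustment over 27 pairs. No pair could therefore pass 0.05. The difference exceeded 1 on the log2 scale in 20 pairs and 4 in 11. In the order of all 37 genes by TPM, the ranges of neighbours over libraries did not overlap in 16 of 36 cases and overlapped in 20. Neither the pairs in constant order nor these neighbours were counted for other genes. The counts are therefore not shown to be particular to these genes. Of the 6 genes above 1000 TPM, Ldha stood clear of Pkm, Pkm of Gapdh and Tpi1 of Eno1, and Eno1 stood clear of Eno3. Gapdh and Aldoa overlapped, as did Aldoa and Tpi1, Eno3 and Pgk1, and Hk2, Slc16a1, Hk1 and Pgd from each gene to the next.

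Among the other 55 genes of these pathways, 31 reached 1 TPM in every library, 6 averaged 100 TPM or more and 14 had 0 counts in all libraries. By merged exon length the 6 were Bsg, Prps1, Pdhb, Pcx, Dld and Pgm1. By principal transcript length Pcx and Pgm1 fell below 100 TPM, at 85.3 and 85.6 TPM, and Pgls and Adpgk rose above it, at 283 and 123 TPM. Those at 0 included Gapdhs, Pgk2, Ldhc and Pdha2, known from testis, Pklr, G6pc and Fbp1, known from liver, Pgam2 and Fbp2, known from muscle, and Slc16a8, Tktl1, Tktl2 and Prps1l1. A count of 0 allows up to 3 counts, which is 0.0247 to 0.0583 CPM in these libraries, for counting error only. Of 18 regulators, Myc was highest by merged exon length at 477 ± 15.6 TPM, followed by Trp53 at 197 ± 6.17 TPM. Next came Egln1, an oxygen sensor that marks HIF for destruction, at 152 ± 5.93 TPM, and Max at 133 ± 13.7 TPM. Hif1a was at 132 ± 23.3 TPM, the HIF-2 gene Epas1 at 2.02 ± 0.72 TPM, and Ppargc1a, a coactivator of mitochondrial genes, had 0 counts. By principal transcript length Myc and Trp53 stayed highest, at 646 and 307 TPM, followed by Max at 168 TPM, Hif1a at 113 TPM and Egln1 at 104 TPM.

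Variation between the 4 libraries was of the size found in other genes. The median coefficient of variation was 6.51% over the 35 genes at 1 TPM or more in every library, against 7.82% over the 10640 protein-coding genes that met the same rule. These sets were not matched for level, so the lower value does not show steadier expression. Excess dispersion was tested by an F ratio, each gene's edgeR quasi-likelihood dispersion over the trend for its abundance. By this F ratio, 35 of the 37 genes had enough counts, and 0 were called at an adjusted p under 0.05, against 0.00734% of 13625 tested genes. At an unadjusted p under 0.05 there was 1, Eno2, against 4.7% of tested genes. DESeq2 dispersion outliers and a like ratio from limma called 0, against 0.316% and 0.00734% of tested genes. Eno2 had a dispersion 4.53 times its trend (unadjusted p = 0.0499, adjusted p = 0.957 by the F ratio from the edgeR fit), with its lowest value in replicate 1 and its highest in replicate 2. Pfkl at 4.04 times, Aldoa at 3.75 times and Slc2a3 at 3.06 times came next, and Pfkm at 0.0319 times and Pfkfb3 at 0.0567 times were the steadiest. The median ratio, which takes abundance into account, was 0.959 for these genes and 0.878 for all tested genes. Leaving out replicate 2, 13 of 14003 genes of the whole table (0.0928%) were called rather than 1 of 13625, and 0 of the 36 members then tested.

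**Figure D4:**
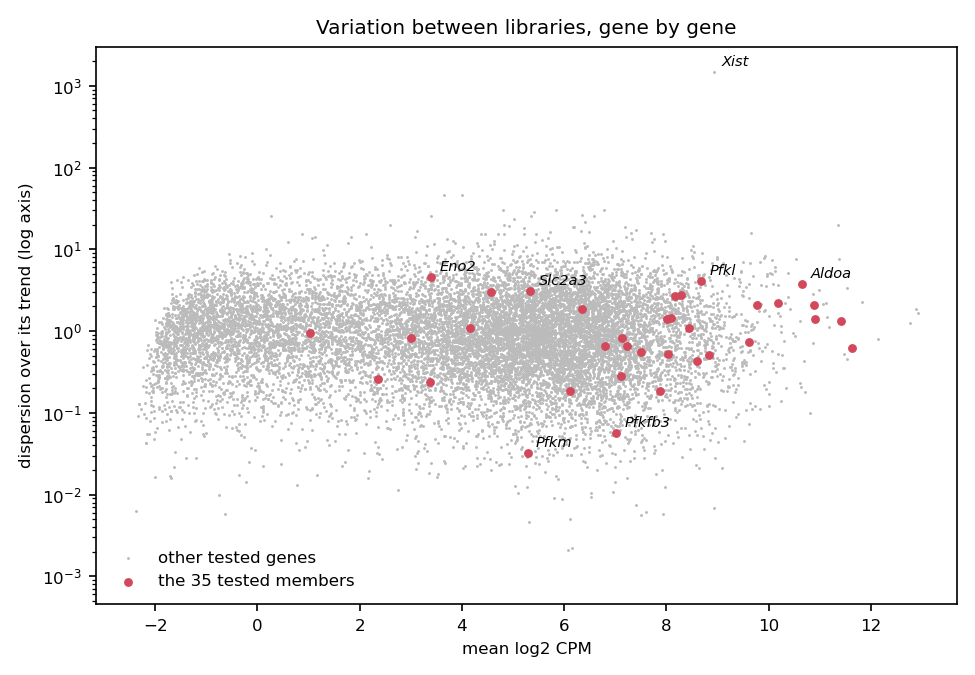
Dispersion of each tested gene over the trend for its abundance (log axis) against its mean log2 CPM; red points are the 35 tested glycolysis, pyruvate and pentose phosphate genes and grey points the rest of 13625. The red points lie within the grey cloud from 0.0319 for Pfkm to 4.53 for Eno2, and Xist stands far above.

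The libraries differed slightly in where they placed these genes. Replicate 2 had the lowest value for 15 of the 35 genes at 1 TPM or more in every library, and the highest for 10. Of the 10640 protein-coding genes that met the same rule, 28.9% were lowest there and 43.8% highest. Replicate 4 had the highest value for 12, against 17.7%, and the lowest for 1, against 16.0%. Replicate 1 was lowest for 7 (background 22.4%) and highest for 10 (24.1%), and replicate 3 lowest for 12 (32.7%) and highest for 3 (14.4%). The median deviation of these genes from their mean over libraries was 0.03, -0.04, -0.04 and 0.04 on the log2 scale in replicates 1 to 4. Over the 10640 protein-coding genes it was -0.006, 0.034, -0.031 and 0.003, so the shift in replicate 3 was near that of all these genes. Ldhb, Aldoa, Pfkl and Slc2a3 lay furthest below their means in replicate 2, and Eno2, Pdk2, Pdk1 and Slc16a1 furthest above. Over protein-coding genes at 1 TPM or more in every library, replicate 2 had median deviations of 0.19, 0.09, 0.02, -0.05 and -0.09 across 5 equal bins of transcript GC content, from low to high. These bins hold 1, 5, 7, 16 and 6 of the 35 genes. Once the dependence on GC content and length was taken out of every library, replicates 1 to 4 held the lowest value for 5, 14, 12 and 4 genes. Of the same 10640 protein-coding genes, 22.7%, 31.9%, 25.8% and 19.6% were lowest there. The highest values then spread to 8, 8, 8 and 11 genes, against 22.9%, 31.9%, 25.4% and 19.8%. These positions rest on 4 libraries and carry no test.

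**Figure D5:**
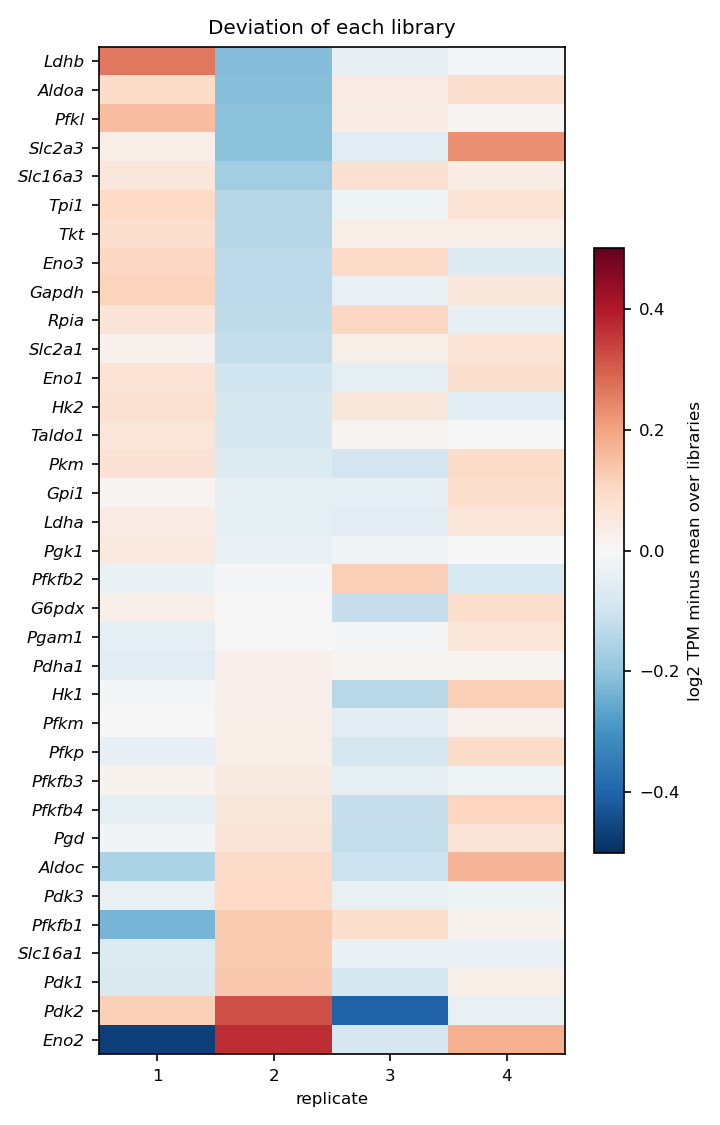
Log2 TPM of each of the 35 genes in each library minus its mean over the 4 libraries, in colour from blue (below) to red (above), with genes sorted by replicate 2. Replicate 2 is lowest for 15 genes and highest for 10, and Eno2 has the widest range, from -0.47 in replicate 1 to 0.37 in replicate 2.

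Of these genes, 5 lie on the X chromosome: Pgk1, Pdha1, Pdk3, G6pdx and Pfkfb1. Their coefficients of variation over the 4 libraries were 2.61%, 2.43%, 4.77%, 5.80% and 10.8%, beside the Xist levels given above. Those of Pdha1 and Pgk1 were the lowest among the 37 genes.

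Copies of these genes in the genome limit some values. Counted as copies were pseudogenes that share a 50-base stretch, and genes on another chromosome that share at least 10% of the stretches. Of the 50-base stretches of the principal transcript, 82.5% occur in annotated copies for Gapdh, 72.2% for Eno1, 68.0% for Pgk1, 41.5% for Pgam1, 29.7% for Pkm, 27.0% for Ldhb, 19.1% for Gpi1, 12.5% for Ldha and 12.4% for Taldo1. Counts assigned to the 213 Gapdh copies came to 2.84% of those of Gapdh, and for the other genes they came to at most 0.540%. Among copies named after these genes, Pgam1-ps2 had 104, 35, 36 and 33 counts in replicates 1 to 4 and Ldha-ps2 had 41, 28, 14 and 20. Fragments that match several places were counted as the authors' settings allow, so the levels of Gapdh, Eno1, Pgk1 and Pgam1 are less certain than those of genes with no copies, such as Eno3, Slc2a1, Hk1, Hk2 and the phosphofructokinase genes. The rank of Gapdh and Eno1 also moves with the length used: relative to merged exon length, principal transcript length shifted the 37 genes by a median of 0.20 on the log2 scale and all protein-coding genes at 1 TPM or more by -0.15, with Gapdh at 1.06 and Slc16a1 at -0.56.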

How the data were processed

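Per the file headers, the authors made the deposited counts with featureCounts (version 1.4.6-p4, GENCODE M13, mm10) from reverse-stranded read pairs with both mates aligned, summed over merged exons. The aligner's version is not given in the sources used here. TPM and CPM were computed here from these counts and the deposited lengths, though the design had assumed TPM. Gene types and principal transcript lengths came from GENCODE M21.

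Pairs were compared on log2(TPM + 0.1). Excess dispersion was tested on the whole table by an F ratio computed here from the fit of edgeR 4.0.16 (R 4.3.3, TMM, filterByExpr, robust prior, Benjamini-Hochberg), checked on simulated data. The largest prior degrees of freedom of the fit served for every gene. Alternatives used DESeq2 1.42.0, limma 3.58.1, other scalings and filters, and leaving out each replicate; principal lengths and the removal of GC trends were chosen after seeing the data. Members and lists were chosen with earlier results of these data known. All members are named, with listed genes that share their step or complex, the 5 highest, those at 0 counts, and the 4 highest and the lowest regulators. Hif1a, Epas1, Pgm1, Mpc1, Mpc2 and Tigar were named after their values were seen. A few listed genes are not reported here. Total counts of 51460018 to 121477975 per library limit the precision of low genes.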

Additional observations from a re-analysis of the deposited data

Results flagged for a closer look

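Each of 73 sets of 4 library values (37 gene levels, 27 pair differences and 9 family shares) was searched for a library far from the other 3, by Dixon's criterion. There were 5 such sets, and chance gives about 1 in 20. Pdk3 was at 98.4 TPM in replicate 2, against 89.3 to 90.1 TPM in the others. The difference of Slc16a3 minus Slc16a1 was 0.091 on the log2 scale in replicate 2, against 0.46 to 0.52 in the others, and the Slc16a3 share of their TPM was 51.6% there, against 58.0% to 58.9%; these are the same counts seen in 2 ways. The difference of Pfkfb3 minus Pfkfb2 was 4.40 in replicate 3, against 4.61 in each of the others. The Pfkfb3 share of its family was 79.7% in replicate 1, against 77.4% to 77.7%. Replicate 2 was the outlying library in 3 of the 5, and 2 of these rest on the same Slc16a1 and Slc16a3 counts. With the trends over GC content and length removed, the log2 deviation of Pdk3 in replicate 2 moved from 0.10 to 0.022. That of Slc16a3 moved from -0.17 to -0.067 and that of Slc16a1 from 0.13 to -0.050. The part of the GC trend of replicate 2 in the outlying values was not tested.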

How the results depend on the processing

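Length normalization moved results the most. The median share of the leading gene over 9 families was 66.0% as reported, 84.7% by CPM and 75.8% by principal transcript length. The median level was 140 TPM as reported, 182 CPM without length, 180 TPM by principal length, and 146 TPM over the 35 genes at 1 TPM or more. By CPM, Hk2 minus Hk1 turned to -0.44, Pfkl minus Pfkp to -0.17 and Pdk3 minus Pdk1 to -1.12. By principal length, Hk2 minus Hk1 turned to -0.99, Pfkl minus Pfkp to -0.020 and Pfkfb4 minus Pfkfb1 to -0.61. These turns follow from the lengths alone, since the counts are the same. Leaving out 1 replicate at a time, pairs in constant order numbered 25 to 26, the median share was 65.3% to 66.8%, genes at 1 TPM numbered 35, the median level was 138 to 143 TPM and genes called variable numbered 0. For genes called variable the count was also 0 under every other normalization, filter and tool tried. Over all tested genes, 69 of 23106 (0.299%) were called without the filter. DESeq2 dispersion outliers called 43 of 13625 (0.316%), against 1 of 13625 in the main fit. So few genes were called in the whole table that a count of 0 does not set these genes apart. No paired analysis was possible because there is 1 group. Hk3 and Pdk4, at 4 to 30 counts per library, are limited by depth.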
